A study of Mus musculus with 6 samples.

Results

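Collagen fibrils gain their strength from covalent bonds between chains, and 10 genes that make or prepare these bonds were followed in mouse dermal fibroblasts with and without thrombospondin-2. They are given by gene symbol: the lysyl oxidase genes Lox, Loxl1, Loxl2, Loxl3 and Loxl4, the lysyl hydroxylase genes Plod1, Plod2 and Plod3, the transglutaminase gene Tgm2, and Serpinh1, which encodes the collagen chaperone HSP47. All 10 were among the 23407 genes with values, and all 10 passed the filter of a mean of at least 10 that left 14707 genes for testing. Bulk RNA was sequenced from 3 libraries labelled WT and 3 labelled TSP2KO. Both groups were primary fibroblasts of dorsal skin, taken from mice aged 12 weeks, kept in culture for 3 to 5 days with serum and taken at passage 1. TSP2KO is the only difference that the labels name; they do not describe the construct or the strain, nor say if each library is its own animal. The p-values thus measure spread among these libraries only, and it may be technical.

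Lysyl hydroxylases act inside the endoplasmic reticulum, where they add hydroxyl groups to lysines of the nascent collagen chain. HSP47 binds the folded triple helix there and accompanies it towards the Golgi. Once collagen is secreted and trimmed, copper-dependent lysyl oxidases convert lysines and hydroxylysines of collagen and elastin to aldehydes, which then condense into crosslinks. Transglutaminase 2 makes a bond of another kind, between glutamine and lysine side chains, and mice without thrombospondin-2 are known for irregular collagen fibrils in skin.

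No gene of the 10 passed the threshold, a Benjamini-Hochberg adjusted p under 0.05 from limma, with TSP2KO set against WT over all 6 libraries. Over all genes 0.0612% passed, 9 of 14707, so a count of 0 among 10 members lies near the background. At an unadjusted p under 0.05 the count was also 0 of 10, where 9.75% of all genes lay (6.09% as lower). The median log2 fold change of the 10 genes was -0.01, and it was -0.01 over all genes tested. Over the 6 libraries, 6 of the 10 genes spanned at least 1 on the log2 scale, near the 49.7% of all tested genes that did. For Loxl2, Loxl3 and Tgm2 the library labelled WT 3 and TSP2KO 3 were the extremes at either end.

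Some libraries stood apart before any member was considered. Thbs2, the gene of thrombospondin-2, had a normalised signal of 122061 (WT 1), 116720 (WT 2) and 8841 (labelled WT 3), against 5177, 6635 and 4891 for TSP2KO 1, 2 and 3. For Thbs2 the library labelled WT 3 thus went against its label, 13.5-fold below the mean of the other WT libraries. Its Thbs2 signal was still higher than in each TSP2KO library. Other genes were mixed. Dcn was 38394.5 there against 2368 to 12200 in TSP2KO, and summed macrophage markers were 3586 against 759 to 886. Adamts2 and Bmp1, given below, instead placed this library with TSP2KO. The library labelled WT 3 weighs on every direction drawn from the WT mean. Thbs2 itself had a log2 fold change of -3.18 (SE 0.95, limma adjusted p = 0.318), and -4.43 (SE 0.22, adjusted p = 0.00257) without that library. Estimated depth ran from 14776502 to 34599855 reads per library, and was lowest in TSP2KO 3. On the first principal component of all tested genes (45.4% of the variance), the library labelled WT 3 lay at 64.1, beside TSP2KO 1 at 51.7 and far from WT 1 and WT 2 at -65.0 and -67.1. The second (33.8%) set TSP2KO 3 apart, at -90.3 against -4.17 to 47.1 in the other 5 libraries. Fibroblast markers were present in every library, with a summed signal of 209617 to 400197 in WT and 171218 to 271700 in TSP2KO over 12 genes. Col3a1, Col1a2 and Col1a1 led that sum, which says little of the other markers. Of the 12, 9 had a log2 fold change below 0 and 3 above, with a median of -0.47. Pdgfra, Dcn and Lum were lower in all TSP2KO libraries, as were 8.27% of all tested genes. Pdgfra had 14328 to 21543 in WT and 4442 to 8460 in TSP2KO.

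Markers of other skin cells also differed between libraries. The sum of 14 keratinocyte markers was 2063 (WT 1), 684 (WT 2) and 56823 (labelled WT 3), against 19834, 16727 and 696 for TSP2KO 1, 2 and 3, with Krt14, Krt6a and Krt17 the most abundant. The sum of 16 macrophage markers was 3586 to 6288 in WT and 759 to 886 in TSP2KO. For 15 of the 16 the groups did not overlap, all lower in TSP2KO, against 14.2% of all tested genes (8.27% lower). The sum of 9 smooth muscle and pericyte markers was 13199 to 23774 in WT and 65576 to 140674 in TSP2KO. Acta2, at 10318 to 18292 in WT and 53500 to 109857 in TSP2KO, and Tagln made up most of it. Of the 9, Acta2, Tagln and Cnn1 were higher in all TSP2KO libraries, as were 5.9% of all tested genes. The other 6 overlapped, with log2 fold changes of -0.31 for Rgs5, -0.63 for Kcnj8 and 0.01 for Mcam among them. Melanocyte markers summed to 142 to 1356, Schwann cell markers to 1685 to 9109, adipocyte markers to 155 to 1117 and skeletal muscle markers to 7.73 to 634 over the 6 libraries. Of the 7 skeletal muscle markers only Acta1 was tested, at 6.70 to 627, and it made up most of that sum. Myod1, Myf5 and Pax7 were absent or at 0. In bulk RNA, fewer cells of a type and less RNA per cell cannot be told apart.

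Promoter sequence was at hand in RefSeq (GRCm38.p6) for 4 of the 10 genes, and those of Plod1 and Serpinh1 are shown, as a hydroxylase and the chaperone. Their upstream windows hold no annotated exon, which was not looked up for the other windows. Each window is the 250 bases before the start, written 5′ to 3′ along the gene, which is the minus strand, at chr4:147936777-147937026 for Plod1 and chr7:99353240-99353489 for Serpinh1. Capitals mark ACGTG on either strand, a form of the core of the hypoxia response element, since hydroxylases of collagen are known as hypoxia targets. The form that starts with G, GCGTG, was not searched or marked.
Plod1: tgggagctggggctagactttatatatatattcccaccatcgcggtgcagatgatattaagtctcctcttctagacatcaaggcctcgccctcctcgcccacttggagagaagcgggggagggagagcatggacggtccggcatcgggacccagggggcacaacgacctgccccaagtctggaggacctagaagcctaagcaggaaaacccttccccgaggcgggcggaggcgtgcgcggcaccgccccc
Serpinh1: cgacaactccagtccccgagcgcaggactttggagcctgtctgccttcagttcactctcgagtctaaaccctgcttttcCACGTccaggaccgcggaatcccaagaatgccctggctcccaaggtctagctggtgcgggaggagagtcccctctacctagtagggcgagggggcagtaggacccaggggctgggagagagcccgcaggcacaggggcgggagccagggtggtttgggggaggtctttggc
The letters GCGTG, which were not searched, do stand in the printed window of Plod1. ACGTG occurred once for Serpinh1, 171 bases before the start, and once for Plod3, 54 bases before the start. ACGTG was not in the windows of Plod1 or Loxl4. Of 32851 upstream windows of that length, 16.6% held it. The heat shock element was searched as GAANNTTC, which reads the same on both strands; it was in none of the 4 windows and in 6.69% of all windows. A match is a description of letters and not a binding site, and the lack of one says only that these letters are not in this window.

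Per length of exon, Serpinh1 was by far the most abundant of the 10 genes and Plod2 the least. Normalised signal per kb of exon, averaged over the 6 libraries, was 15373 for Serpinh1, 1268 for Lox, 903 for Loxl2, 764 for Loxl3, 617 for Plod1 and 383 for Plod3. It was 165 for Loxl1, 162 for Loxl4, 89.3 for Tgm2 and 49.2 for Plod2. Serpinh1 lay above 99.9% of the tested genes that had a length, while Plod2 lay above 47.2%. Of the 9 neighbouring pairs in this order, the ranges over libraries were separate for Serpinh1 and Lox and overlapped for the other 8. In Plod1 over Plod3, Plod3 over Loxl1 and Loxl4 over Tgm2, the upper gene was nevertheless higher in 6 of 6 libraries. Loxl2 over Loxl3, Loxl3 over Plod1, Loxl1 over Loxl4 and Tgm2 over Plod2 held in 3 of 6, so these neighbours have no fixed order.

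**Figure D1:**
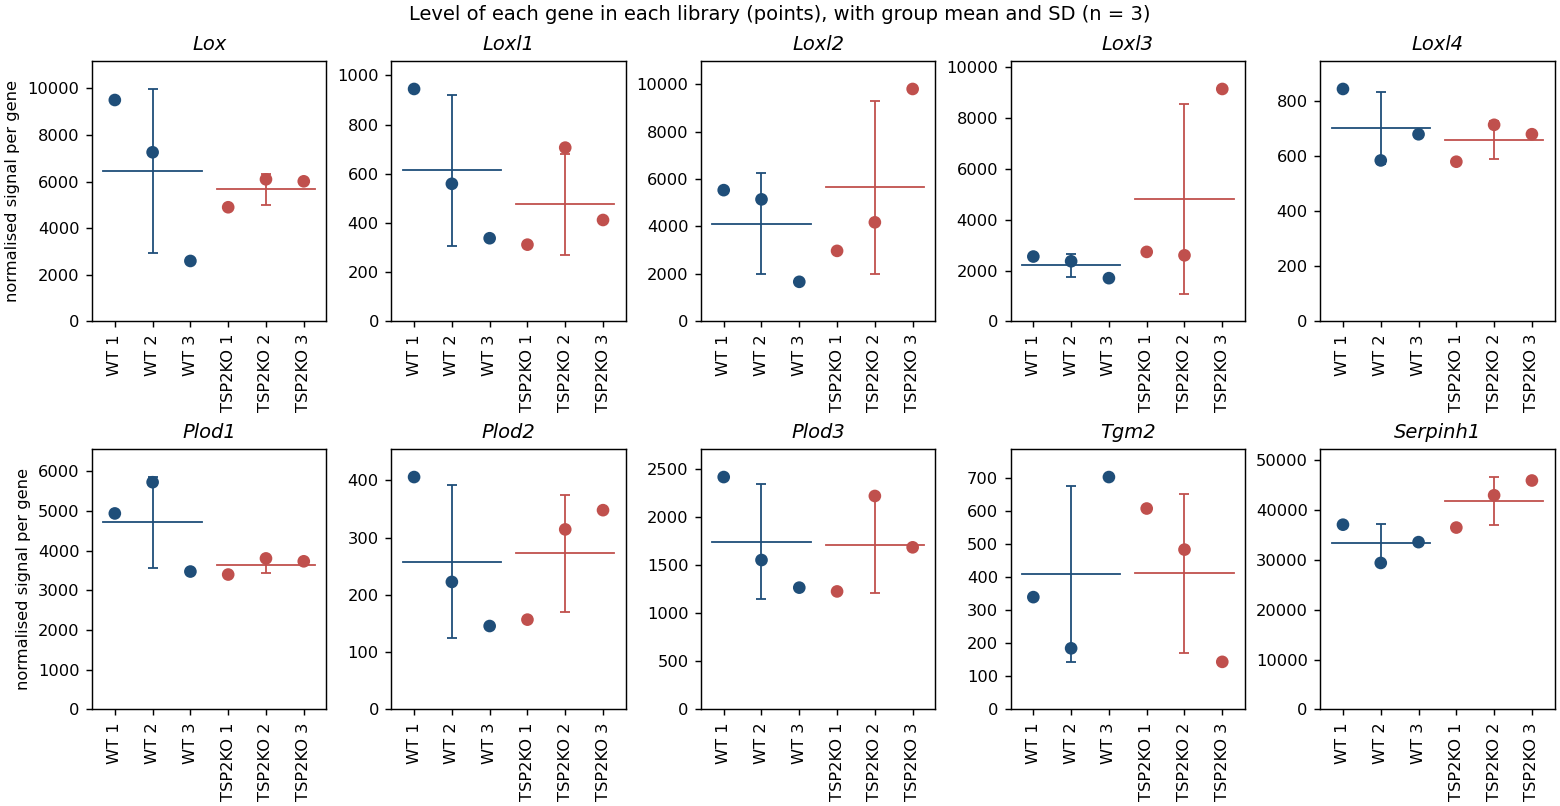
Normalised signal per gene (y axis, linear from 0) in each of the 6 libraries (x axis) for the 10 genes; points are libraries, horizontal lines the group means and vertical bars the SD (n = 3, WT blue, TSP2KO red). Only Loxl3 has groups that do not overlap, and TSP2KO 3 alone, at 9146, carries most of that difference.

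Lox (chromosome 18, 52516067 to 52529867, minus strand, mm10) encodes the founding lysyl oxidase, which acts on fibrillar collagen and elastin. Its signal was 9496 in WT 1, 7254 in WT 2, 2591 in the one labelled WT 3, then 4895, 6094 and 6008 across TSP2KO 1 to 3. The 3 TSP2KO libraries lay close together and inside the span of the WT libraries, below WT 1 and WT 2 and above the library labelled WT 3. The group means were 6447 ± 3523 and 5666 ± 669 (SD, n = 3 each), with a log2 fold change of 0.00 (95% interval -1.07 to 1.07, limma adjusted p = 1.00). A fit that omits the library labelled WT 3 gave a log2 fold change of -0.56 (SE 0.21, 95% interval -1.05 to -0.07, limma adjusted p = 0.160). The size of the Lox estimate thus depends on that library, and the threshold was not reached either way. With all 6 libraries the estimate had no clear sign, which also turned without TSP2KO 2 (-0.05) or TSP2KO 3 (-0.04).

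Loxl1 (chromosome 9, 58287738 to 58313186, minus strand) encodes the family member known for its role in elastic fibres. It had 945 (WT 1), 559 (WT 2) and 338 (labelled WT 3), against 312, 707 and 412 for TSP2KO 1, 2 and 3. WT 1 and TSP2KO 2 were the highest of their groups, and the groups overlapped. The log2 fold change was -0.32 (SE 0.44, 95% interval -1.35 to 0.70, limma adjusted p = 0.853), and -0.69 (SE 0.38, adjusted p = 0.317) without the library labelled WT 3.

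Loxl2 and Loxl3 encode members with scavenger receptor domains; LOXL2 is known for crosslinking collagen IV of basement membranes. Loxl2 (chromosome 14, 69609068 to 69695834, plus strand) had 5529 in WT 1, 5141 in WT 2, 1667 in the one labelled WT 3, then 2970, 4174 and 9792 across TSP2KO 1 to 3. The lowest and the highest library differed 5.88-fold, the widest span of the 10 genes, and 11.2% of all tested genes spanned more. The groups overlapped, with means of 4112 ± 2127 and 5645 ± 3641 (SD, n = 3 each) and a log2 fold change of 0.45 (SE 0.58, 95% interval -0.92 to 1.82, limma adjusted p = 0.848). Leaving out the library labelled WT 3, it was -0.11 (SE 0.46, adjusted p = 0.916).

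Loxl3 (chromosome 6, 83034173 to 83052562, plus strand) had 2551 (WT 1), 2366 (WT 2) and 1700 (labelled WT 3), against 2734, 2599 and 9146 for TSP2KO 1, 2 and 3. All 3 TSP2KO libraries lay above all 3 WT libraries, but the gap between TSP2KO 2 and WT 1 was small, and TSP2KO 3 stood 3.35-fold above the next library. Loxl3 was the only one of the 10 whose groups did not overlap, against 14.2% of all tested genes (5.9% higher and 8.27% lower in TSP2KO), so this count is near the background. Its log2 fold change was the largest of the 10 in size, 0.89 (SE 0.48, 95% interval -0.25 to 2.02, limma adjusted p = 0.645). With neither the library labelled WT 3 nor TSP2KO 3 in the fit it was 0.12 (SE 0.18, adjusted p = 0.748). In TSP2KO 3, Acta2 and Tagln were also at their highest, 109857 and 23142, as were Cnn1, Myh11, Mcam and Notch3 of the same marker list. Des and Kcnj8 of that list were at their lowest, 2.67 each, which is near the floor. TSP2KO 3 had the lowest depth too; the part of either in the Loxl3 level was not tested. Exons of Loxl3 share 11.6% of their bases with Htra2 on the other strand, whose signal was lowest in TSP2KO 3, at 576 against 708 to 841 elsewhere.

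Loxl4 (chromosome 19, 42593982 to 42612813, minus strand), the remaining member with scavenger receptor domains, was the steadiest of the 10. It had 845 in WT 1, 585 in WT 2, 680 in the one labelled WT 3, then 580, 714 and 680 across TSP2KO 1 to 3. Its libraries spanned 1.46-fold, and 83.7% of all tested genes spanned more. The log2 fold change was -0.08 (SE 0.20, 95% interval -0.55 to 0.38, limma adjusted p = 0.931).

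The make-up of the lysyl oxidase family, taken as each gene's share of the summed signal per kb, varied between libraries. The summed signal per kb was 4052 (WT 1), 3292 (WT 2) and 1484 (labelled WT 3), against 2400, 2996 and 5343 for TSP2KO 1, 2 and 3. Lox made up 49.1%, 46.1% and 36.5% of that sum in the WT libraries and 42.7%, 42.6% and 23.5% in the TSP2KO libraries. Loxl3 had its lowest share in WT 1, 13.7%, and its highest in TSP2KO 3, 37.2%, where it was the leading member of the family, while Lox led in the other 5 libraries. In the library labelled WT 3 the share of Loxl4 was 10.9%, against 3.02% to 5.74% in the other 5, and the sum of the family was lowest there.

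**Figure D2:**
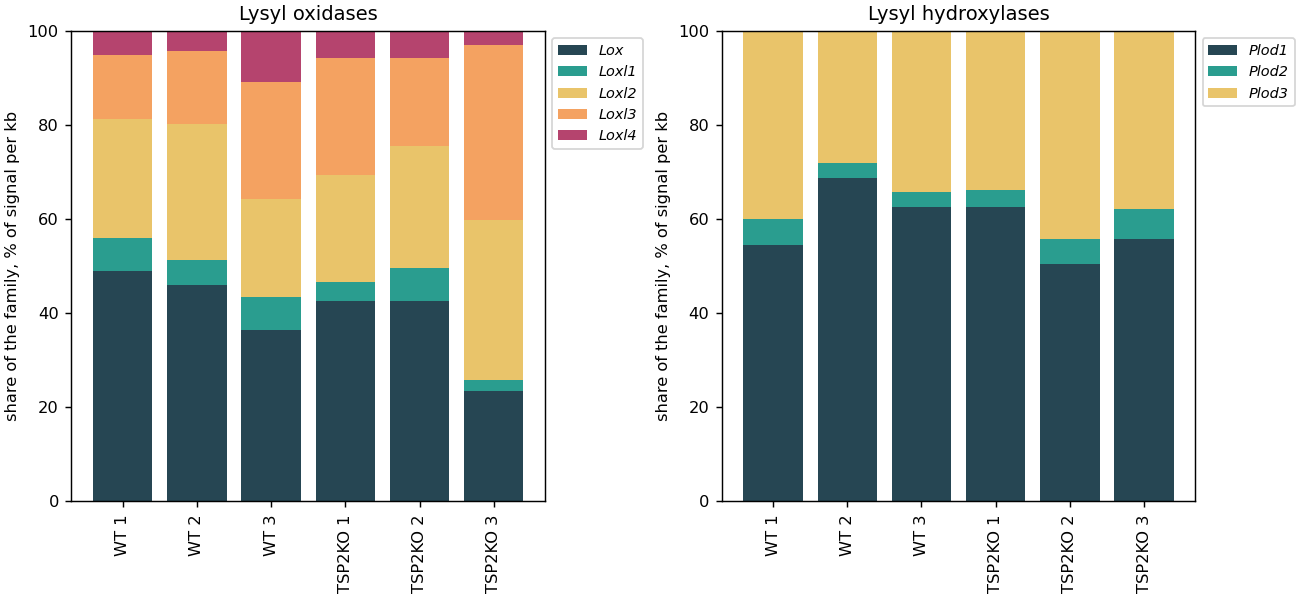
Share of each gene in its family (y axis, % of the family's signal per kb of exon) in each library (x axis), lysyl oxidases on the left and lysyl hydroxylases on the right. Lox holds 36.5% to 49.1% of its family in 5 libraries and 23.5% in TSP2KO 3, and Plod1 holds 50.5% to 68.7% of its family.

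The lysyl hydroxylases spanned 1.68-fold (Plod1) to 2.79-fold (Plod2) between libraries. Plod1 (chromosome 4, 147909753 to 147936767, minus strand), whose enzyme modifies lysines of the collagen helix, had 4935 (WT 1), 5721 (WT 2) and 3472 (labelled WT 3). TSP2KO 1, 2 and 3 gave 3396, 3803 and 3730. The library labelled WT 3 lay among the TSP2KO libraries, all of them below WT 1 and WT 2. The means were 4709 ± 1141 and 3643 ± 217 (SD, n = 3 each), with a log2 fold change of -0.34 (SE 0.22, 95% interval -0.86 to 0.17, limma adjusted p = 0.696). Leaving out the library labelled WT 3, it was -0.55 (SE 0.17, 95% interval -0.95 to -0.14, adjusted p = 0.108).

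Plod2 (chromosome 9, 92542223 to 92608428, plus strand) encodes the hydroxylase of the telopeptides at the ends of the collagen helix, which favours stable, hard to remodel crosslinks. It had 406 in WT 1, 223 in WT 2, 146 in the one labelled WT 3, then 157, 314 and 348 across TSP2KO 1 to 3. High and low libraries occurred in both groups, and the log2 fold change was 0.13 (SE 0.45, 95% interval -0.92 to 1.18, limma adjusted p = 0.959). Leaving out the library labelled WT 3, it was -0.22 (SE 0.41, adjusted p = 0.782).

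Plod3 (chromosome 5, 136987019 to 136996648, plus strand) encodes an enzyme that also adds sugars to hydroxylysine. It had 2419 (WT 1), 1556 (WT 2) and 1268 (labelled WT 3), against 1229, 2222 and 1688 for TSP2KO 1, 2 and 3. As for Loxl1, WT 1 and TSP2KO 2 were the highest, and the log2 fold change was -0.02 (SE 0.31, 95% interval -0.74 to 0.71, limma adjusted p = 0.990). It was -0.22 (SE 0.30, adjusted p = 0.701) in the fit that omits the library labelled WT 3. Exons of Plod3 share 11.9% of their bases with other genes, among them Znhit1 on the other strand. Znhit1 was lowest in WT 1, at 152, and highest in TSP2KO 3, at 271. Among genes with a mean of at least 50, over the 2252 with the most GC-rich transcripts (54.7% to 65.8% GC), the class to which Plod3, Loxl1, Loxl4, Tgm2 and Serpinh1 belong, the median log2 value lay 0.10 above the mean of the libraries in WT 1 and 0.14 above it in TSP2KO 2. It lay at -0.12 to -0.02 in the other 4. Plod2, with 43.0% GC, is in the most GC-poor class and was high in WT 1, TSP2KO 2 and TSP2KO 3. The median of that class was highest in WT 2, at 0.15, and lowest in TSP2KO 2, at -0.18, which is not the order of Plod2. The part of GC content in these levels was not tested.

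Serpinh1 (chromosome 7, 99345376 to 99353239, minus strand) is the chaperone gene whose promoter is printed above. It had 37056 in WT 1, 29381 in WT 2, 33556 in the one labelled WT 3, then 36479, 42953 and 45916 across TSP2KO 1 to 3. TSP2KO 2 and TSP2KO 3 were above every WT library, while TSP2KO 1 lay just below WT 1. The means were 33331 ± 3842 and 41783 ± 4826 (SD, n = 3 each), a log2 fold change of 0.33 (SE 0.21, 95% interval -0.17 to 0.82, limma adjusted p = 0.698). Here the library labelled WT 3 made little difference, with 0.33 (SE 0.24, adjusted p = 0.436) without it. Quantile normalization of the libraries gave a larger value, 0.51 (95% interval 0.01 to 1.01, adjusted p = 0.500).

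Tgm2 (chromosome 2, 158116402 to 158146436, minus strand) ran in another order than the collagen-modifying genes. It had 340 (WT 1), 185 (WT 2) and 704 (labelled WT 3), against 609, 484 and 144 for TSP2KO 1, 2 and 3. The highest and the lowest library, the one labelled WT 3 and TSP2KO 3, differed 4.88-fold, while the group means were nearly the same, 410 ± 266 and 413 ± 241 (SD, n = 3 each). The log2 fold change was -0.02 (SE 0.65, 95% interval -1.55 to 1.51, limma adjusted p = 0.994), and 0.47 (SE 0.61, adjusted p = 0.681) in the fit that omits the library labelled WT 3. With neither the library labelled WT 3 nor TSP2KO 3 in the fit it was 1.11 (SE 0.32, adjusted p = 0.0755), still short of the threshold.

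The order of the libraries by Tgm2 was that of the 9 endothelial markers summed, in all 6 positions. That sum was 1691 in WT 1, 828 in WT 2, 6440 in the one labelled WT 3, then 3058, 2895 and 690 across TSP2KO 1 to 3. Pecam1, Vwf and Emcn were the most abundant of these markers, and none of the 9 was at 0 in any library. Tek had the order of the sum, but these leading markers did not. Pecam1 was 230 in TSP2KO 3 against 213 in WT 2, and Vwf was 182 in WT 2 against 115 in WT 1. Emcn was 174 in TSP2KO 3 against 90.1 in WT 1, and Cldn5 was highest in WT 1, at 72.1. The keratinocyte sum had the same order as Tgm2 in 4 of 6 positions, with WT 2 and TSP2KO 3 exchanged. So did the melanocyte sum in 4 of 6, with WT 1 and TSP2KO 2 exchanged. Endothelial cells are known to express Tgm2; the part of these cells in the Tgm2 level was not tested. Exons of Tgm2 share 21.8% of their bases with genes on the other strand, chiefly Rprd1b, and as it is not known whether the counting used strand, reads from these bases could fall to either gene. Rprd1b was highest in TSP2KO 2, at 553, and had 397 in the library labelled WT 3.

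**Figure D3:**
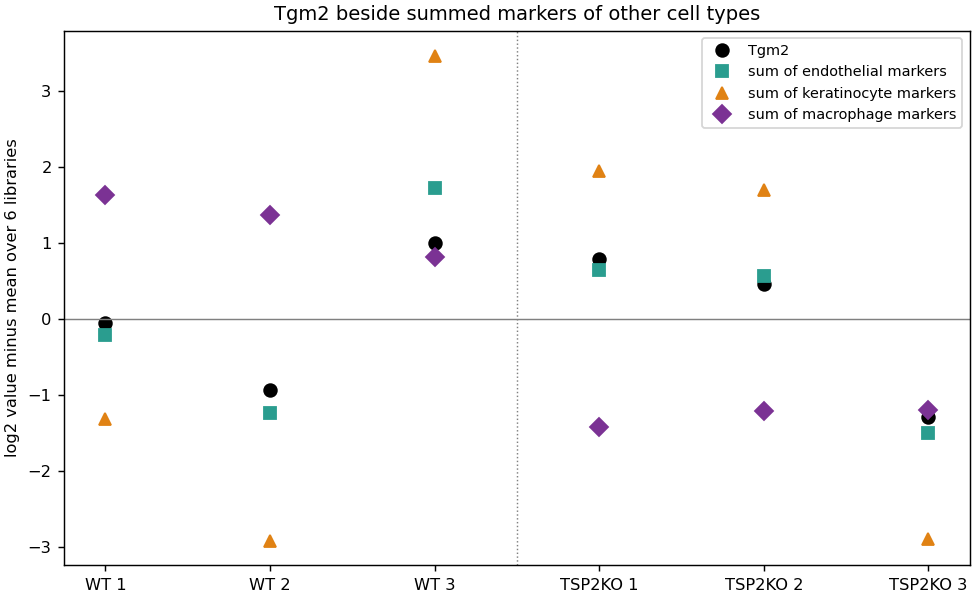
Log2 value minus its mean over the 6 libraries (y axis) for Tgm2 and for the summed markers of endothelial cells, keratinocytes and macrophages, by library (x axis; the dotted line parts WT from TSP2KO). Tgm2 and the endothelial sum are highest in the library labelled WT 3 and lowest in TSP2KO 3, while the macrophage sum is high in all 3 WT libraries.

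Set against each other, the fold changes of the 10 genes had wide intervals. With all libraries every 95% interval held 0, and the intervals left room for changes of over 2-fold in at least 1 direction for Lox, Loxl1, Loxl2, Loxl3, Plod2 and Tgm2. For Loxl4, Plod1, Plod3 and Serpinh1 the intervals lay within a log2 fold change of -0.86 to 0.82. Without the library labelled WT 3, 7 of the 10 genes were lower in TSP2KO, and the median was -0.16 against -0.03 over all genes. At an unadjusted p under 0.05 there were then 2, Lox and Plod1, both lower, where 24.5% of all genes lay; 0 of 10 passed the adjusted threshold, where 5.17% of all genes did (2.43% higher, 2.75% lower). With TSP2KO 3 left out as well, 0 of 10 passed, where 8.98% of all genes did (4.51% higher, 4.47% lower).

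**Figure D4:**
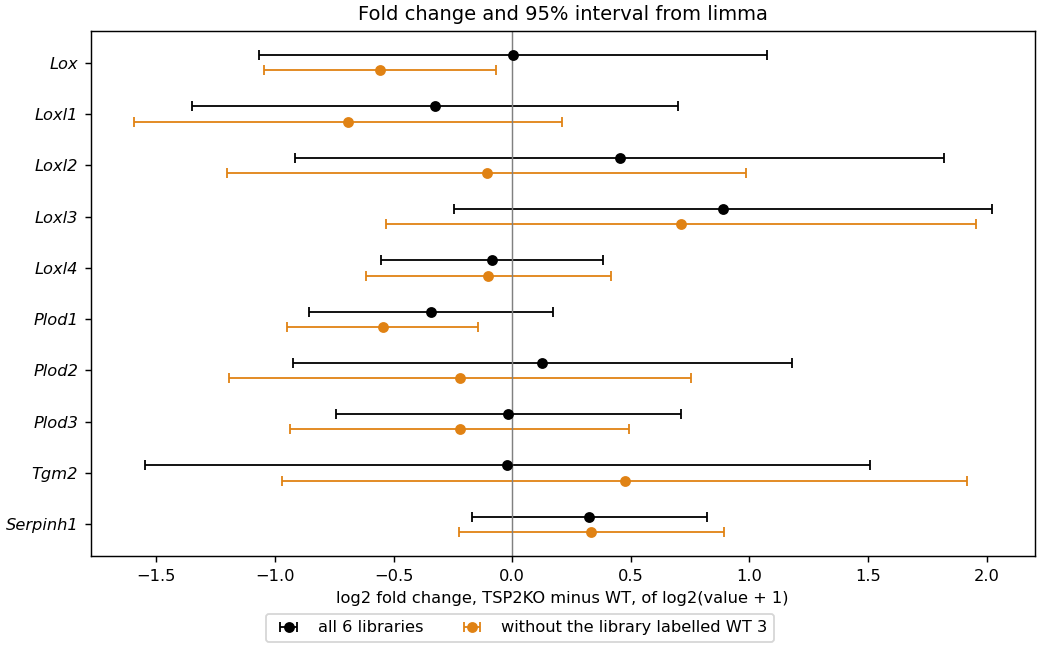
Log2 fold change, TSP2KO minus WT (x axis), with its 95% interval from limma for each of the 10 genes (y axis), with all 6 libraries (black) and without the library labelled WT 3 (orange). Every black interval holds 0, and Lox moves from 0.00 to -0.56 when that library is left out.

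Levels of the enzymes relative to each other and to their substrates were compared as log2 ratios, 11 in all, chosen after the values were seen. With 3 libraries against 3 an exact two-sided permutation test cannot go below p = 0.1, and the smallest found was p = 0.2 (exact permutation test; adjusted p = 0.688 over the 11). The log2 ratio of Loxl1 to Eln, the elastin gene, was 1.91 (WT 1), 1.41 (WT 2) and -0.53 (labelled WT 3), against -0.92, 0.65 and -0.56 for TSP2KO 1, 2 and 3. The TSP2KO libraries all lay below WT 1 and WT 2, a difference of -1.20 with the library labelled WT 3 and -1.93 without it. Lox relative to Eln differed by -0.88 with it and -1.80 without it. Relative to Col1a1, which encodes the main chain of collagen I, Serpinh1 differed by 0.24, Lox by -0.08 and Plod1 by -0.42. With so few libraries the test cannot settle whether any of these ratios differs.

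Genes with the most similar profile were sought among 10348 named genes with a mean of at least 50, by the root mean square difference of centred log2 values over the 6 libraries. For Lox these were Slc48a1, F2r and Bdnf, at 0.14 to 0.15. For Loxl1 they were Ppp2r5b, Ostm1 and Flot1 at 0.05 to 0.09, and for Plod2 they were Klhdc8b, Mon1a and Dap at 0.06 to 0.13. Loxl2 was nearest to Abat, Gpc4 and Gpc6 at 0.19 to 0.26, and Loxl3 to Adamts12, Dpysl3 and Akap12 at 0.09 to 0.23. Tgm2 was nearest to Ptprb, Cyb561 and S1pr1 at 0.16 to 0.25; Ptprb and S1pr1 are known from endothelial cells. Within the 10, Plod3 was the nearest to Loxl1 (0.26) and to Plod2 (0.27), whereas the nearest to Tgm2 lay at 0.86.

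The steps around crosslinking were followed in 8 further lists, none of which held a gene past the threshold with all 6 libraries. In collagen folding and proline hydroxylation, 18 of 18 genes were tested and 0 passed, with a median log2 fold change of 0.09. The smallest p values there belonged to Fkbp10, a partner of lysyl hydroxylase 2 in telopeptide hydroxylation, with 5435 ± 310 in WT against 8973 ± 3253 in TSP2KO (SD, n = 3 per group; log2 fold change 0.67, SE 0.26, limma adjusted p = 0.462). Then came P4ha1, a prolyl hydroxylase subunit (-0.47), P3h4 (0.67) and Calr, a chaperone of the endoplasmic reticulum (0.31). Fkbp10 was 12686 in TSP2KO 3 and 5105 to 7603 in the other 5 libraries, so it too had its highest value in the library in which Loxl2 and Loxl3 were highest.

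Among genes of collagen glycosylation, export and propeptide cleavage, 13 of 16 were tested and 0 passed, with a median of -0.17. Without the library labelled WT 3, 2 passed as lower. Adamts2, the procollagen N-proteinase, had 5735 (WT 1), 6052 (WT 2) and 1881 (labelled WT 3), against 1449, 2006 and 1396 in TSP2KO (log2 fold change -1.34, limma adjusted p = 0.384; -1.88 and 0.0127 without that library). Bmp1, the procollagen C-proteinase that also releases active lysyl oxidase from its proenzyme, had 1331, 1258 and 574 in WT and 425, 556 and 733 in TSP2KO (-0.82, adjusted p = 0.527; -1.21 and 0.0424 without it). For both genes the library labelled WT 3 lay with TSP2KO. Tll1, a relative of Bmp1, and Adamts14 lay at 0.77 and -0.66 on the log2 scale (adjusted p = 0.713 and 0.743).

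Substrates and fibril partners of the enzymes, 17 of 17 tested, had a median of 0.01 and 0 genes past the threshold. Dcn, which encodes decorin, a proteoglycan on the fibril surface, had 48265 ± 8831 in WT against 8554 ± 5386 in TSP2KO (SD, n = 3 per group; log2 fold change -2.80, SE 0.61, limma adjusted p = 0.182). Lum, which encodes lumican, a proteoglycan of the same family, had a log2 fold change of -3.33 (adjusted p = 0.341), and Col4a1, a chain of basement membrane collagen, 0.71 (0.318). Without the library labelled WT 3, Eln passed as higher and Postn as lower. Eln had 252, 210 and 489 in WT and 588, 449 and 609 in TSP2KO (0.88, adjusted p = 0.444; 1.24 and 0.0292 without that library). Postn, the matricellular protein periostin that brings BMP1 to lysyl oxidase, had a log2 fold change of -1.50 (adjusted p = 0.486; -2.25 and 0.0160 without it). Of these 17 genes 5 also stand in the list of fibroblast markers.

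Of the other transglutaminases 3 of 9 were tested and 0 passed. F13a1, coagulation factor XIII A, known from macrophages, had 338, 365 and 735 in WT and 179, 253 and 29.4 in TSP2KO, with no overlap (log2 fold change -2.01, SE 0.77, limma adjusted p = 0.448). The macrophage sum was likewise lower in all TSP2KO libraries, but within the groups the order was not that of F13a1. F13a1 was highest in the library labelled WT 3, where the sum was the lowest of WT, 3586. It was lowest in TSP2KO 3, where the sum was the highest of TSP2KO, 886. The part of macrophages in the F13a1 level was not tested. Tgm1 and Tgm5, known from keratinocytes, had their highest values in the library labelled WT 3, 73.8 and 46.2, where the keratinocyte sum was highest. Copper is the cofactor of the lysyl oxidases, and of 8 tested genes of copper supply in general 0 passed, with a median of -0.02. These include Ccs, Sco1, Sco2 and Cox17, which serve other copper enzymes, so the median is not one of lysyl oxidase supply alone. Atp7a, the pump that loads secreted copper enzymes, had -0.32 (adjusted p = 0.620), and the importers and carrier Slc31a2, Slc31a1 and Atox1 had -0.19, -0.20 and 0.12.

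Heat shock chaperones, most of them cytosolic, share regulation by heat shock factors with Serpinh1. They had a median of 0.14 and 0 of 14 past the threshold. Hspd1 and Hspe1 of this list are mitochondrial. Hspb1, Dnaja1, Bag3 and Hsp90aa1 had the smallest p, with log2 fold changes of 1.27, -0.38, -0.44 and 0.25. Hypoxia targets had a median of -0.28, with 18 of 20 below 0 and 0 past the threshold. All tested genes had a median of -0.01. In the fit that omits the library labelled WT 3, 16 of 20 hypoxia targets lay below 0. Their median then shrank to -0.17, where that of all tested genes was -0.03. Bnip3, a mitophagy receptor, had 1808 ± 395 in WT against 661 ± 29.8 in TSP2KO (SD, n = 3 per group; log2 fold change -1.43, limma adjusted p = 0.0974, or 0.00988 when the library labelled WT 3 is left out). Ndrg1 (-0.82) passed with Bnip3 without that library, both lower, while Pdk1 (-1.78) and Adm (-1.15) did not. For genes of the TGF-beta response the median was 0.44, with 0 of 15 past the threshold. Tgfb3, Tgfbi, Tgfb2 and Ccn2 had the smallest p there, with 1.22, -2.55, 0.91 and 1.35. Without the library labelled WT 3, genes past the threshold included Id1, Ltbp2 and Smad7, which were higher, and Tgfbi, which was lower.

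**Figure D5:**
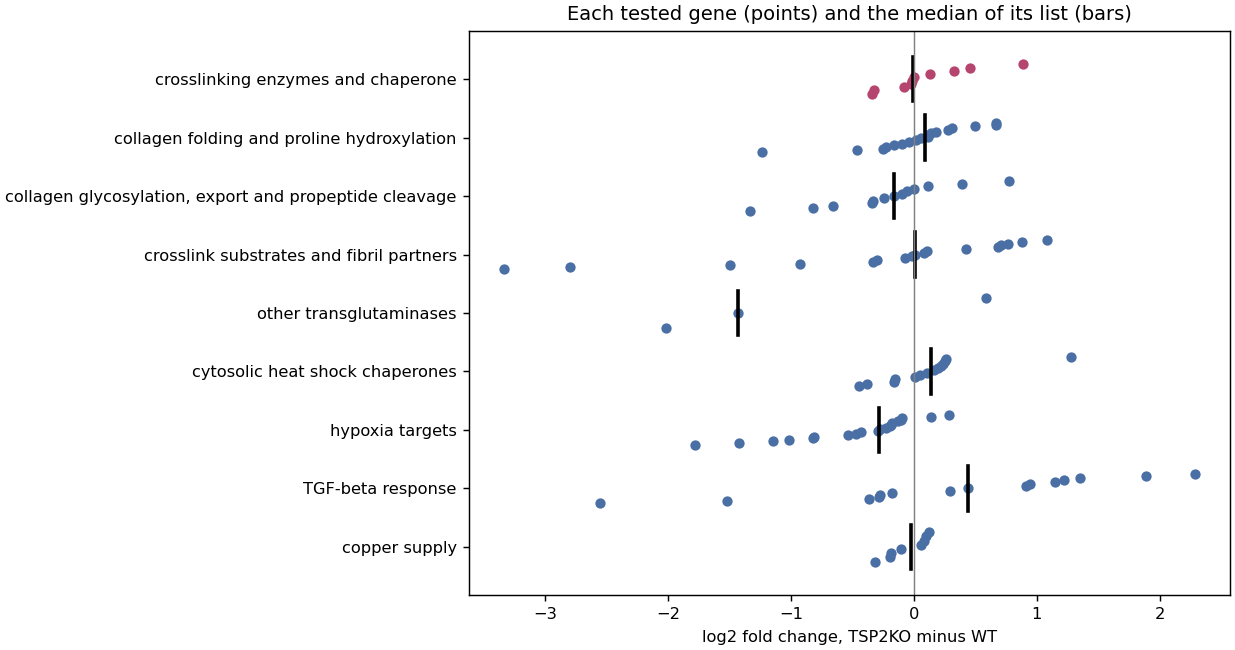
Log2 fold change, TSP2KO minus WT with all 6 libraries (x axis), of each tested gene (points) in the crosslinking set and the 8 lists around it (y axis); bars are list medians. The crosslinking genes lie between -0.34 and 0.89 around a median of -0.01, while single genes of the substrate list reach -3.33.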

How the data were processed

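The authors deposited a normalised signal per gene, listed as normalised counts, in 6 columns. The unit was taken as a signal because the values are not whole. STAR, Partek, DESeq2 and the mm10 build are listed, per the submitters' processing notes, without role or order; how reads were counted, with what annotation and whether by strand, is not given in the sources used here. Median ratios to the geometric mean of the libraries were 0.997 to 1.02. In each library the most common low value was taken as 1 read: 68.6% to 73.9% of values above 0 were whole multiples within 0.02 of a read, too few to recover counts, and totals divided by it gave the estimated depth. Each column was assigned by its genotype and number, since its library suffix differs from the labels.

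Values were compared as log2(value + 1) with limma 3.58.1 in R 4.3.3 (linear model, mean-variance trend, two-sided), over genes with a mean of at least 10 and Benjamini-Hochberg adjustment over all of them; such fold changes understate low genes. The test was tested on simulated data. Exon lengths come from GENCODE M21, whose coordinates were those of 96.4% of genes once 1 base was taken off each stop. Members and lists were chosen with earlier results of these data known. The genes named are all 10 members, Thbs2, up to 4 genes of smallest p per list and the 3 most similar profiles of each member whose range reached 1; others were chosen after their values were seen. Alternatives were other pseudocounts, filters, scalings and variance models, a replicate block, and each library left out. The result of 1 listed gene is not reported here.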

Additional observations from a re-analysis of the deposited data

How the results depend on the processing

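In every alternative run, 0 of the 10 members passed the threshold. The number of all genes past it was 9 as reported, 14 with a pseudocount of 10, 15 without the mean-variance trend, and 0 with a pseudocount of 0.1, no filter, a mean of at least 100 or quantile normalization. Leaving out 1 library gave 0 to 761, the 761 without the library labelled WT 3. With the replicate number as a block 0 genes passed; same-numbered libraries did not deviate together (correlations of -0.42, -0.25 and -0.39), so they share only a number. The log2 fold change of Thbs2 was -4.43 without the library labelled WT 3 and -3.18 with it, and -2.54 without WT 1.

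Signs turned as follows. Quantile normalization gave 0.075 for Plod3 and 0.035 for Tgm2. Over the fits that leave out libraries, the lowest and highest log2 fold changes were -0.60 and 0.38 for Lox, -0.69 and 0.048 for Loxl1, -0.60 and 0.82 for Loxl2, -0.21 and 0.056 for Loxl4, -0.44 and 0.52 for Plod2, -0.23 and 0.24 for Plod3, and -0.49 and 1.11 for Tgm2. The members' median ranged from -0.33 to 0.31. Without the library labelled WT 3, Lox was -0.56, Loxl2 -0.11, Plod2 -0.22 and Tgm2 0.47. The cause was not tested. Called genes of the lists ranged from 0 to 2 for glycosylation, export and cleavage (13 tested), substrates (17) and hypoxia (20). For TGF-beta response (15 tested) they ranged from 0 to 5. The upper ends came without the library labelled WT 3, where 5.17% of all genes passed.

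With neither the library labelled WT 3 nor TSP2KO 3, a setting chosen after seeing the data, 1321 genes passed. The members' median was -0.33, with Lox -0.60, Loxl2 -0.60, Plod2 -0.44 and Tgm2 1.11, and Thbs2 -4.35. Past the threshold were then 2 of 13 genes (glycosylation, export and cleavage), 6 of 17 (substrates) and 1 of 3 (other transglutaminases). In hypoxia 3 of 20 passed and in TGF-beta response 6 of 15, where 8.98% of all genes did.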
